A study of Mus musculus with 20 samples.

Results

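The effect of deleting SMRT in neurons was compared between 2 brain regions, hippocampus and amygdala, at postnatal day 21 in mice. SMRT-KO animals combined the pan-neuronal Snap25-IRES2-cre driver, in which Cre is made wherever Snap25 is expressed, with a floxed SMRT allele, and they were set against the libraries labelled control. The comparison used 14 of the 20 libraries of the series, 3 SMRT-KO and 4 control libraries from hippocampus and 3 SMRT-KO and 4 control libraries from amygdala. The remaining 6 libraries, 3 per tissue, came from NCoR1-KO mice, in which the same driver was crossed to floxed NCoR1. The labels do not say whether control animals carried Cre or a floxed allele, how many alleles were floxed, or whether libraries of a group came from separate animals, so that p-values measure the spread between these libraries. The members are the 14210 genes, of 23412 in each table, that reached 1 TPM (transcripts per 1000000) in at least 3 libraries of each tissue. For each gene the difference is the hippocampus effect (SMRT-KO minus control, log2(TPM + 1)) minus the amygdala effect, so a negative value means a lower SMRT-KO effect in hippocampus than in amygdala. Hippocampus and amygdala values come from separate tables, and a level set across tissues is a description only.

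SMRT and NCoR1 are related corepressors that unliganded nuclear receptors, among them the thyroid hormone and retinoic acid receptors, and other transcription factors bring to their target genes. The complex holds the histone deacetylase HDAC3, and its loss can release target genes from repression. Hippocampus contains the dentate gyrus and the CA fields with their pyramidal cells, whereas the amygdala is a group of nuclei that lies next to striatum and cortex in the dissection.

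Snap25, the gene that carries the Cre cassette and encodes a SNARE protein of synaptic vesicle fusion, was lower in every SMRT-KO library of both tissues. It had 1247, 1090 and 1699 TPM in SMRT-KO hippocampus, against 2236, 2204, 2329 and 2249 TPM in control hippocampus. In amygdala Snap25 had 1053, 1207 and 1114 TPM in SMRT-KO, against 1927, 2154, 1825 and 2228 TPM in control. The effects of -0.77 in hippocampus and -0.85 in amygdala differed by 0.08 (two-sided exact permutation test within tissues over 1225 arrangements, p = 0.899), and without the library labelled SMRT-KO hippocampus 3, which had the highest Snap25 of the SMRT-KO hippocampus group, the difference was -0.10. Within each tissue the exact p was 0.0286, the smallest that 3 against 4 libraries allow. In NCoR1-KO, which has the same driver, Snap25 had 1260 to 1350 TPM in hippocampus and 1120 to 1230 TPM in amygdala. These values also lay below every control of their tissue. Ncor1, which SMRT-KO leaves intact, had a difference of -0.14 (exact permutation p = 0.657).

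Prox1 and Fibcd1, markers of hippocampal cells, had higher averages in the groups labelled hippocampus than in those labelled amygdala. Prox1 of dentate granule cells averaged 52.6 TPM in SMRT-KO hippocampus and 66.5 TPM in control hippocampus, with 8.1 TPM in SMRT-KO amygdala and 8.4 TPM in control amygdala. Fibcd1 of CA1 averaged 86.8 and 83.0 TPM in SMRT-KO and control hippocampus, with 8.3 and 6.0 TPM in SMRT-KO and control amygdala. The summed TPM of wider marker lists did not always follow the labels. CA field genes summed to 1469 to 1762 TPM in control hippocampus, against 1859 to 2317 TPM in control amygdala. Dentate granule cell genes summed to 1231 to 1474 and 1387 to 1582 TPM in the same groups. Genes of amygdala nuclei summed to 971.5 to 1643 TPM in control hippocampus, against 1941 to 2384 TPM in control amygdala. The 3 SMRT-KO hippocampus libraries were the least alike of any group, with a median within-group SD of 0.161 log2 units over genes, against 0.112 in control hippocampus, and with 0.0906 in SMRT-KO amygdala, against 0.114 in control amygdala. In bulk tissue, fewer cells of a type and less RNA per cell cannot be told apart.

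No gene passed the test of a tissue difference. Of 14210 genes 0 were called (percent called 0%, smallest adjusted p = 0.12, limma over all 20 libraries with Benjamini-Hochberg adjustment at 0.05). At an unadjusted p under 0.05 there were 1257 genes (8.85%), of which 571 (4.02%) had a positive and 686 (4.83%) a negative difference. The corresponding count for NCoR1-KO, which shares the control libraries, was 522 (3.67%, of which 1.71% positive and 1.96% negative) with 0 called. Both counts rest on 1 shared estimate of the spread. The median within-group SD, however, was 0.161 in SMRT-KO hippocampus and 0.0913 in NCoR1-KO hippocampus. The part of this spread in the counts was not tested. The median standard error of a difference was 0.143 log2 units, so the 95% interval of a typical gene extended 0.301 to either side before any adjustment over genes. With the adjustment even the difference of smallest p, Kctd16 at -1.23, did not pass. Without the libraries labelled SMRT-KO hippocampus 1 and 2, 543 genes passed, 103 positive and 440 negative. This sets a single SMRT-KO hippocampus library against the controls, assumes that it varies like the other groups, and was added after the data were seen. Without SMRT-KO hippocampus 1 alone 17 genes passed, without control amygdala 3 there were 3, and without SMRT-KO amygdala 1 there was 1.

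The effect itself passed for few genes in hippocampus and for more in amygdala. In hippocampus only Snap25, the gene that carries the Cre cassette and was lower in both knockouts, was called (0.00704%). At an unadjusted p under 0.05 there were 1347 genes (9.48%), made up of 6.35% below and 3.13% above control. That count depended on the joint fit. It was 1074 with only the SMRT-KO and control libraries and 806 with each tissue fitted alone. In amygdala 309 genes were called (2.17%), 119 higher (0.837%) and 190 lower (1.34%), with 2624 (18.5%) at an unadjusted p under 0.05, made up of 6.55% above and 11.9% below control. Under the same alternatives the unadjusted count in amygdala was 2266 and 3156. A call in amygdala and none in hippocampus is not a difference between them, which is what the first test addressed. Of the 119 genes that rose in amygdala, 72 (60.5%) also had a positive hippocampus effect, against 44.2% of all genes, with a median effect of 0.05 in hippocampus and 0.59 in amygdala. Of the 190 that fell in amygdala, 165 (86.8%) had a negative hippocampus effect, against 55.8% of all genes, with medians of -0.10 in hippocampus and -0.34 in amygdala. Across all genes the effects in the 2 tissues correlated weakly (Pearson's correlation 0.217, Spearman's rank correlation 0.274, 14210 genes, given as a description since genes share libraries). The amygdala count depended on single libraries, with 716 calls without SMRT-KO amygdala 1, 6 without SMRT-KO amygdala 2 and 10 without SMRT-KO amygdala 3. It was 30, 51 and 179 without control amygdala 1, 2 and 3, 192 and 182 without NCoR1-KO amygdala 1 and NCoR1-KO hippocampus 1, and 518 and 536 without SMRT-KO hippocampus 2 and 3, whose spread enters the joint fit. In hippocampus the count was 251 without SMRT-KO hippocampus 1 and 3 without control hippocampus 4. It was 0 without SMRT-KO hippocampus 2 or without control hippocampus 1, 2 or 3, and without SMRT-KO hippocampus 1 and 2 it was 994.

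**Figure D1:**
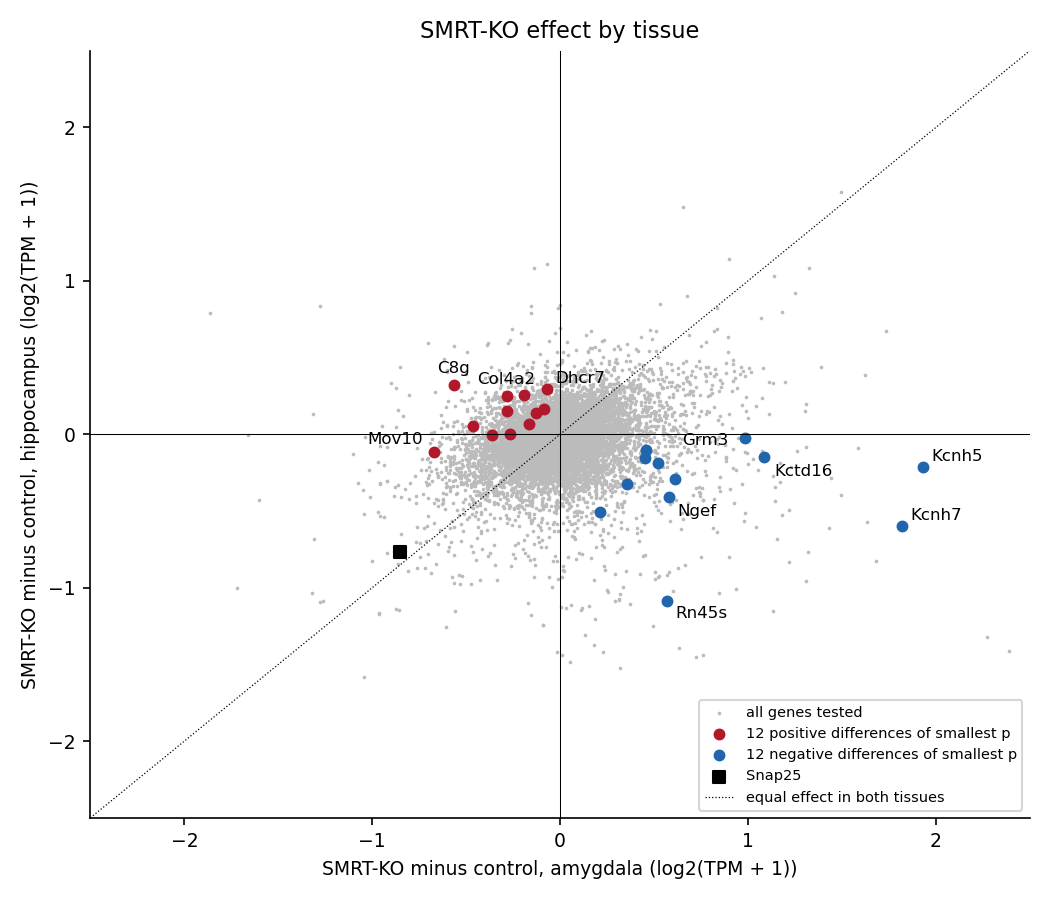
SMRT-KO effect in hippocampus (vertical axis) against amygdala (horizontal axis), both as SMRT-KO minus control in log2(TPM + 1), with 1 point per gene; 2 genes lie outside the axes. Blue points mark the 12 negative and red points the 12 positive differences of smallest p, none of which passed after adjustment, and the blue points lie to the right, at higher amygdala effects, while Snap25 (black square) lies near the line of equal effects.

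Among the 12 negative differences of smallest p, the first were those of Kctd16, Kcnh5, Grm3 and Ngef, all of which rose in amygdala. Kctd16, an auxiliary subunit of GABA-B receptors on chromosome 18 (mm10, 40256962 to 40531630, plus strand), came first. It had 15.4, 11.7 and 12.6 TPM in SMRT-KO hippocampus, against 18.2, 15.4, 13.2 and 12.7 TPM in control hippocampus, where the groups overlapped. In amygdala Kctd16 had 39.9, 40.7 and 46.7 TPM in SMRT-KO, against 15.8, 21.5, 24.2 and 17.4 TPM in control, with every SMRT-KO library above every control. Separation of that kind was seen for 5.88% of all genes in amygdala and for 2.08% in hippocampus, and the reverse, all SMRT-KO libraries below control, for 12.3% in amygdala and 2.74% in hippocampus. Kctd16 rose in amygdala by 1.084 ± 0.14 on the log2 scale (adjusted p = 0.00345, limma), and its difference of -1.23 ± 0.20 did not pass (adjusted p = 0.12, 95% interval -1.65 to -0.82).

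Grm3, the metabotropic glutamate receptor mGlu3, showed the same arrangement. Its levels were 24.2, 22.3 and 22.4 TPM in SMRT-KO hippocampus, against 25.0, 18.8, 24.2 and 26.4 TPM in control hippocampus. In amygdala they were 64.3, 88.7 and 78.8 TPM in SMRT-KO, against 34.9, 31.6, 43.9 and 44.4 TPM in control. The hippocampus groups overlapped and the amygdala groups did not. Grm3 rose in amygdala (0.98 ± 0.13, adjusted p = 0.00345, limma) and its difference was -1.01 ± 0.19 (adjusted p = 0.167).

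Kcnh5, a voltage-gated potassium channel of the ether-a-go-go family, had low levels in hippocampus, with 1.41, 1.60 and 0.98 TPM in SMRT-KO, against 2.53, 1.66, 0.87 and 1.96 TPM in control. In amygdala Kcnh5 had 15.9, 28.9 and 20.5 TPM in SMRT-KO, against 5.59, 2.91, 8.82 and 3.48 TPM in control, again without overlap. Its amygdala effect of 1.93 ± 0.27 passed (adjusted p = 0.00409, limma) and its difference of -2.15 ± 0.39 did not (adjusted p = 0.167). The related channel gene Kcnh7 had 3.16, 1.85 and 1.34 TPM in SMRT-KO hippocampus, against 9.08, 3.13, 2.23 and 2.27 TPM in control hippocampus. In amygdala Kcnh7 had 22.5, 35.0 and 29.0 TPM in SMRT-KO, against 7.23, 6.58, 13.9 and 4.14 TPM in control. Its difference was -2.42 ± 0.51 (adjusted p = 0.236), and on the log2(TPM + 1) scale changes of genes at such low levels are understated.

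Ngef, which encodes a guanine nucleotide exchange factor acting below Eph receptors, had 71.3, 62.8 and 51.7 TPM in SMRT-KO hippocampus, against 84.0, 99.9, 70.3 and 76.6 TPM in control hippocampus. In amygdala Ngef had 233.0, 277.1 and 287.0 TPM in SMRT-KO, against 181.3, 152.9, 175.7 and 200.5 TPM in control. It rose in amygdala (0.58 ± 0.13, adjusted p = 0.033, limma) and the difference was -0.99 ± 0.18 (adjusted p = 0.167), moving to -0.15 with the cortex layer score of each library as a covariate. Tle4, a corepressor of the Groucho family that is also a marker of deep cortical layers, rose in amygdala by 0.46 and had a difference of -0.56 ± 0.11 (adjusted p = 0.204). Lrrc7 (densin-180, a postsynaptic density protein) and Fst (follistatin, which binds activin) also rose in amygdala, by 0.52 and 0.61, with differences of -0.71 and -0.90 that did not pass (adjusted p = 0.236 for both, limma).

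Among the 12 leading negative differences, Fgf14, Garnl3 and Rn45s had no within-tissue effect that passed. Fgf14, a modulator of voltage-gated sodium channels, had 27.98, 21.5 and 25.0 TPM in SMRT-KO hippocampus, against 30.3, 33.5, 30.2 and 30.8 TPM in control hippocampus. In amygdala Fgf14 had 48.9, 55.3 and 55.1 TPM in SMRT-KO, against 37.2, 40.1, 46.6 and 41.6 TPM in control, so that the SMRT-KO libraries lay below all controls in hippocampus and above all in amygdala. Only 12 genes (0.0844%) showed that pattern of non-overlap, and 10 (0.0704%) showed the reverse. Fst and Garnl3, a protein with a Rap GTPase-activating domain, also had it, and the difference of Garnl3 was -0.72 ± 0.16 (adjusted p = 0.252, limma). Rn45s, the 45S ribosomal RNA precursor, took 0.953%, 1.55% and 0.999% of all TPM in SMRT-KO hippocampus, against 1.87% to 3.28% in control hippocampus, and 1.77% to 3.26% in SMRT-KO amygdala, against 1.25% to 2.15% in control amygdala. Libraries were made with a poly(A) selection kit, which removes most of this RNA; its difference of -1.66 moved to -0.37 under quantile normalization.

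**Figure D2:**
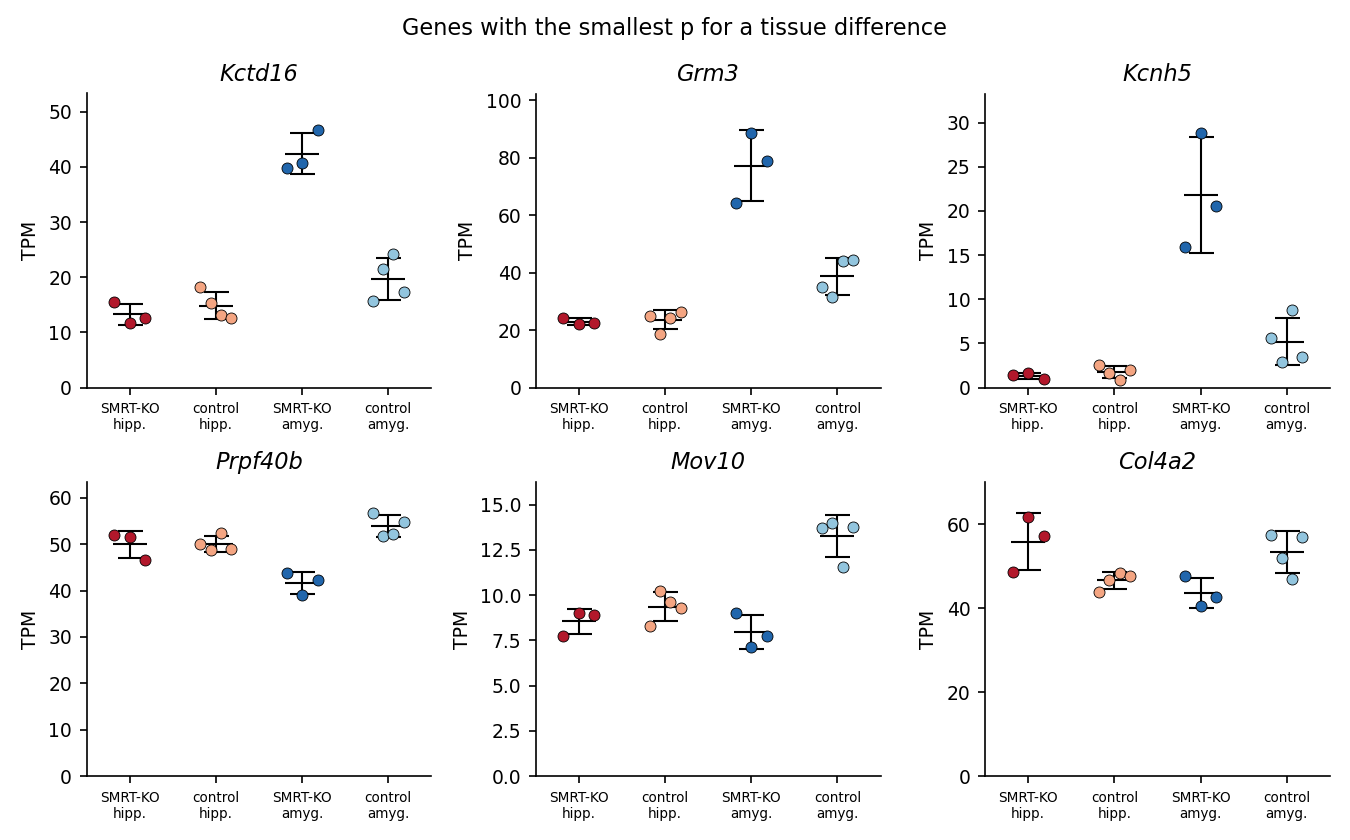
TPM of 6 of the genes with the smallest p for a tissue difference, 3 negative (upper row) and 3 positive (lower row), with 1 point per library and bars for the mean and SD (3 SMRT-KO and 4 control libraries per tissue). In the upper row the SMRT-KO amygdala libraries of Kctd16 lie between 39.9 and 46.7 TPM, above all other libraries, and in the lower row Prpf40b and Mov10 of SMRT-KO amygdala lie below control amygdala.

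The 12 positive differences of smallest p included 2 collagen genes and a sterol synthesis enzyme. Prpf40b, a pre-mRNA processing factor, had 51.9, 51.5 and 46.6 TPM in SMRT-KO hippocampus, against 50.04, 48.8, 52.4 and 49.0 TPM in control hippocampus. In amygdala Prpf40b had 43.7, 39.1 and 42.4 TPM in SMRT-KO, against 56.8, 51.8, 52.2 and 54.8 TPM in control. It fell in amygdala (-0.36 ± 0.05, adjusted p = 0.00478, limma), and the difference was 0.36 ± 0.07 (adjusted p = 0.236). Mov10, an RNA helicase, had 7.74, 9.0 and 8.89 TPM in SMRT-KO hippocampus, against 8.29, 10.2, 9.62 and 9.31 TPM in control hippocampus. It fell in amygdala to 9.0, 7.15 and 7.76 TPM in SMRT-KO, against 13.7, 13.99, 11.5 and 13.8 TPM in control (-0.67, adjusted p = 0.00345, limma), and its difference was 0.55 ± 0.13 (adjusted p = 0.265). Npas3 (a neuronal bHLH-PAS transcription factor), Mea1 and Ypel4 also fell in amygdala, by 0.46, 0.17 and 0.27, and had differences of 0.52, 0.23 and 0.27 that did not pass.

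Col4a1 and Col4a2, which encode the type IV collagen chains of vascular basement membranes, averaged above control in hippocampus and below it in amygdala. Col4a2 had 48.6, 61.7 and 57.2 TPM in SMRT-KO hippocampus, against 43.8, 46.7, 48.4 and 47.7 TPM in control hippocampus. In amygdala Col4a2 had 47.6, 40.5 and 42.7 TPM in SMRT-KO, against 57.5, 52.0, 46.8 and 57.0 TPM in control. The SMRT-KO libraries were all above control in hippocampus and overlapped control in amygdala. Col4a1 had 51.1, 59.6 and 54.9 TPM in SMRT-KO hippocampus, against 47.8, 50.2, 52.4 and 48.0 TPM in control hippocampus, where the groups overlapped. It fell in amygdala to 46.1, 41.7 and 44.6 TPM in SMRT-KO, against 59.9, 53.2, 49.7 and 53.0 TPM in control (adjusted p = 0.0406, limma). The differences were 0.43 ± 0.10 for Col4a1 and 0.53 ± 0.12 for Col4a2 (adjusted p = 0.252 for both). The 2 genes are transcribed head to head on chromosome 8 and their annotated first bases overlap, so that they are not independent observations. The stretch that holds both starts (RefSeq sequence of GRCm38, chr8:11312801-11312830, plus strand) is shown because it is the shared part, with the 22 bases between and including the starts in capitals.
Col4a2 and Col4a1: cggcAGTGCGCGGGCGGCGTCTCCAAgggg

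Dhcr7, the enzyme of the last step of cholesterol synthesis, had 50.6, 57.6 and 49.6 TPM in SMRT-KO hippocampus, against 38.4, 42.1, 43.3 and 47.1 TPM in control hippocampus. In amygdala Dhcr7 had 40.0, 42.4 and 40.6 TPM in SMRT-KO, against 43.6, 42.6, 41.7 and 44.3 TPM in control. The SMRT-KO libraries were all above control in hippocampus and overlapped control in amygdala, and neither tissue effect passed. The difference was 0.36 ± 0.09 (adjusted p = 0.288). The remaining 4 of the 12, C8g (a complement component), Rab2b (a small GTPase), Skap2 (a Src family adaptor) and Atg5 (an autophagy factor), had differences of 0.88, 0.27, 0.45 and 0.25, and their SMRT-KO libraries lay above all controls in hippocampus. In amygdala those of C8g, Rab2b and Skap2 lay below all controls. C8g, Rab2b, Mea1, Prpf40b, Kcnh7 and Ngef, and of the genes described elsewhere Ncor1 and Nefm, overlap other tested genes on the opposite strand, and no source used here says whether reads were assigned by strand, so that reads of the partners may be mixed in their values.

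Nuclear receptors that recruit SMRT recognise variants of the half-site AGGTCA. Promoter sequences from RefSeq (GRCm38.p6, the 250 bases before each start, both strands searched) were matched for 20 of the 24 leading genes, and 2 of the 20, Lrrc7 and Dhcr7, held AGGTCA, against 15.8% of 27025 genes and 14% of their 32851 promoters. A match is a description of the sequence and not a binding site. The stretch of Lrrc7, at chr3:158561934-158561993 on the minus strand, precedes a RefSeq start. It lies inside the gene as GENCODE annotates it, with its first base at 158562221. The stretches are shown with the motif in capitals, that of Dhcr7 at chr7:143823090-143823149 on the plus strand.
Lrrc7: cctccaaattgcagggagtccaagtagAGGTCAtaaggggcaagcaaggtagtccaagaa
Dhcr7: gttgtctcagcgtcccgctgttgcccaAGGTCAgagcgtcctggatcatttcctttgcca

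The tissue difference of SMRT-KO was also set against that of NCoR1-KO, a comparison in which the controls cancel. It uses the same SMRT-KO libraries and the same estimate of the spread as the first test. A gene that led the first test and passed here is therefore not separate support. In this test 3 genes passed (0.0211%), 1 positive (0.00704%) and 2 negative (0.0141%), and 14.8% had an unadjusted p under 0.05 (6.72% positive and 8.06% negative). Grm3 had a difference of -1.37 ± 0.20 and Kctd16 of -1.38 ± 0.21 (adjusted p = 0.033 for both, limma). Their NCoR1-KO libraries had 22.8, 26.4 and 21.5 TPM of Grm3 in hippocampus and 29.8, 28.01 and 31.6 TPM in amygdala, and 13.3, 12.7 and 14.1 TPM of Kctd16 in hippocampus and 14.1, 16.1 and 17.6 TPM in amygdala. In amygdala every NCoR1-KO library was thus below every SMRT-KO library for both genes. Since both passed a contrast of these same libraries, that separation adds no support. The share of all genes with such a separation is not given here. Hcrtr1, the orexin receptor 1, was the third, with 1.24 ± 0.20 (adjusted p = 0.033), and was chosen after its values were seen. It had 4.28, 3.39 and 4.37 TPM in SMRT-KO hippocampus and 4.40, 3.84 and 3.26 TPM in SMRT-KO amygdala, against 2.07, 2.56 and 2.08 TPM in NCoR1-KO hippocampus and 5.80, 8.04 and 5.52 TPM in NCoR1-KO amygdala. Control libraries had 2.85 to 3.5 TPM of Hcrtr1 in hippocampus and 3.55 to 4.87 TPM in amygdala. SMRT-KO overlapped control in both tissues, whereas NCoR1-KO lay below all controls in hippocampus and above all in amygdala. For this arrangement too, the share of all genes is not given. The count of 3 was 0 without SMRT-KO amygdala 2 or 3, without SMRT-KO hippocampus 2 or 3, and without any of 5 of the 6 NCoR1-KO libraries, and it was 489 without SMRT-KO hippocampus 1, 38 without SMRT-KO amygdala 1, and 1676 without SMRT-KO hippocampus 1 and 2.

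A few genes had effects of opposite sign at an unadjusted p under 0.05 in each tissue. There were 28 (0.197%) lower in hippocampus and higher in amygdala and 18 (0.127%) of the reverse, against 86 (0.605%) higher in both and 191 (1.34%) lower in both. Slc2a13, a proton-coupled myo-inositol transporter, had 68.3, 56.4 and 54.7 TPM in SMRT-KO hippocampus, against 72.5, 75.7, 71.5 and 66.5 TPM in control hippocampus. In amygdala Slc2a13 had 103.5, 103.9 and 115.3 TPM in SMRT-KO, against 85.4, 84.9, 94.8 and 98.3 TPM in control. Its difference was -0.50 (adjusted p = 0.265, limma). Nxph3, a neurexin ligand of deep cortical layers, had a larger but less certain difference of -1.88 ± 0.50, with 6.86, 8.43 and 2.52 TPM in SMRT-KO hippocampus, against 20.8, 14.2, 10.2 and 6.98 TPM in control hippocampus. In amygdala Nxph3 had 35.5 to 44.7 TPM in SMRT-KO, against 13.9 to 32.2 TPM in control. Of the reverse pattern, Rasd1, a Ras-related protein induced by glucocorticoids, had 96.2, 92.7 and 94.9 TPM in SMRT-KO hippocampus, against 68.0, 69.0, 68.9 and 93.2 TPM in control hippocampus. Its amygdala levels were 8.54, 7.11 and 8.80 TPM in SMRT-KO, against 9.52, 13.9, 10.4 and 8.94 TPM in control, and the difference was 0.69 (adjusted p = 0.331).

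The mean effect over both tissues was tested for all 14210 genes, whatever their direction in each tissue. It called 221 genes (1.56%), 70 higher (0.493%) and 151 lower (1.06%), with 19.9% at an unadjusted p under 0.05. A gene with an effect in only 1 of the tissues can pass this test. Besides Snap25, the mean effect of the zinc finger gene Zfp932 passed, with 66.0, 64.7 and 61.3 TPM in SMRT-KO hippocampus, against 77.0, 72.0, 70.7 and 73.9 TPM in control hippocampus. In amygdala Zfp932 had 54.6, 59.6 and 57.7 TPM in SMRT-KO, against 73.1, 70.0, 70.3 and 66.5 TPM in control. It fell in the mean by 0.24 (adjusted p = 0.00687, limma), with a tissue difference of 0.09 whose 95% interval was -0.05 to 0.22. Nefm, the medium neurofilament subunit, rose in the mean by 0.61 ± 0.10 (adjusted p = 0.0156), with 177.4, 230.8 and 201.1 TPM in SMRT-KO hippocampus, against 141.0, 136.3, 144.4 and 156.9 TPM in control hippocampus. In amygdala Nefm had 173.3, 287.7 and 205.4 TPM in SMRT-KO, against 122.6, 118.6, 168.4 and 115.4 TPM in control. Bok, a BCL2 family member that marks CA3, had 118.0, 121.2 and 137.6 TPM in SMRT-KO hippocampus, against 74.2, 73.9, 96.3 and 98.4 TPM in control hippocampus. In amygdala Bok had 32.1, 30.5 and 33.3 TPM in SMRT-KO, against 24.3, 21.4, 24.1 and 26.1 TPM in control, and it rose in the mean by 0.48 (adjusted p = 0.0156). Rap1gds1, Rgs8 and Pcsk2 also rose in the mean, by 0.33, 0.32 and 0.31, and Armcx4 and Slc16a11 fell by 0.38 and 0.45. In both tissues all SMRT-KO libraries were above control for 41 genes (0.289%) and below it for 121 genes (0.852%). Without the libraries labelled SMRT-KO hippocampus 1 and 2 the mean test called 1125 genes, and with only the 14 SMRT-KO and control libraries it called 1 gene. It called 3 without SMRT-KO amygdala 2 or 3 and 562 without SMRT-KO amygdala 1.

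**Figure D3:**
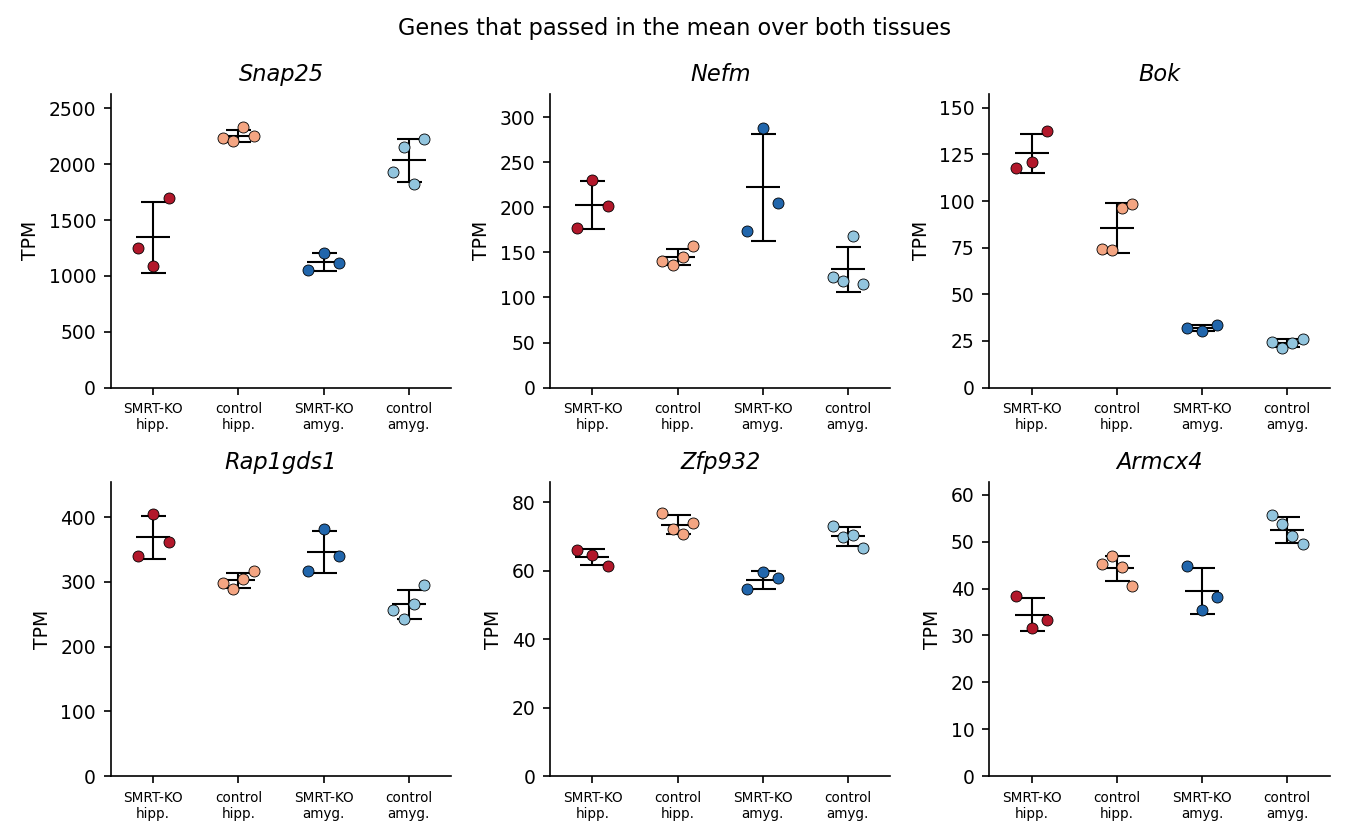
TPM of 6 genes that passed in the mean over both tissues, with 1 point per library and bars for the mean and SD (3 SMRT-KO and 4 control libraries per tissue). The SMRT-KO libraries lie below every control of their tissue for Snap25, Zfp932 and Armcx4 and above every control for Nefm, Bok and Rap1gds1.

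Gene lists were described by counts and medians of the tissue difference, beside a median of 0.02 and 45.9% negative differences over all 14210 genes. Genes induced by thyroid hormone, whose receptors use SMRT, had negative differences for 23 of 28 members, with a median of -0.26, a median effect of -0.02 in hippocampus and of 0.23 in amygdala. At an unadjusted p under 0.05, 7 of the 28 were negative and 0 positive, against 4.83% and 4.02% of all genes. In amygdala 8 of the 28 rose, against 0.837% of all genes, and none fell. The median library score of cortex layer genes was 0.29 in SMRT-KO amygdala and -0.175 in control amygdala, and that of striatal genes was 0.40 in SMRT-KO amygdala and -0.285 in control amygdala (a score is the median log2 deviation of a list from its mean over the tissue). With either score as a covariate the amygdala test called 0 genes. The median difference of the thyroid hormone list was then -0.16 with the cortex layer score and -0.12 with the striatal score, and the part of the scores in these calls was not tested. Klf9, a transcription factor induced directly by the receptor, rose in amygdala to 175.1, 252.6 and 234.6 TPM in SMRT-KO, against 162.5, 171.1, 166.5 and 177.1 TPM in control (adjusted p = 0.0407, limma). In hippocampus Klf9 had 191.4, 189.3 and 195.2 TPM in SMRT-KO, against 189.4, 181.5, 199.9 and 200.1 TPM in control. Its difference was -0.37 ± 0.12 (adjusted p = 0.41), and it was the gene that passed without SMRT-KO amygdala 1. Ier5, Homer1 and Sema7a rose in amygdala by 0.92, 0.64 and 0.99, with differences of -1.01, -0.77 and -0.75, and the difference of Sema7a changed sign, to 0.03, with the cortex layer score as a covariate. The nuclear receptors themselves had a median difference of -0.18 with 26 of 35 negative, and none of these differences passed. Thrb and Rxrb, which encode a thyroid hormone receptor and a retinoid X receptor, had -0.35 and -0.19.

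Potassium channel genes had negative differences for 41 of 52 members, with a median of -0.27, and 18 of the 52 were negative at an unadjusted p under 0.05, against 4.83% of all genes, with 0 positive. Their median effect was -0.02 in hippocampus and 0.22 in amygdala. There 5 of the 52 were called higher, against 0.837% of all genes, and none lower, against 1.34%. Kcnb2, a delayed rectifier subunit, had 5.55, 3.34 and 3.57 TPM in SMRT-KO hippocampus, against 6.5, 4.72, 4.96 and 4.26 TPM in control hippocampus. It rose in amygdala to 9.37, 10.4 and 9.02 TPM in SMRT-KO, against 5.13, 6.11, 7.0 and 5.55 TPM in control (adjusted p = 0.044, limma), and its difference was -0.87 ± 0.21 (adjusted p = 0.288). Kcnh1 rose in amygdala by 0.61, with a difference of -0.65. The median of the list was -0.01 with the cortex layer score as a covariate and lay between -0.38 and -0.20 under the other alternatives run. Of 28 sodium and calcium channel genes 5 were negative at an unadjusted p under 0.05, with a median of -0.11, and Cacnb4 and Cacna2d3 rose in amygdala by 0.60 and 0.67.

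Glutamate and GABA receptor lists had medians closer to that of all genes than potassium channels had. Metabotropic glutamate receptors and scaffolds had a median of -0.11, ionotropic receptors of -0.03 and the GABA list of -0.04. At an unadjusted p under 0.05, 5 of 21, 3 of 17 and 3 of 21 members were negative, against 4.83% of all genes. In the same order 1, 0 and 1 were positive, against 4.02%. In amygdala 2 members of the metabotropic list were called higher, against 0.837% of all genes. The NMDA receptor subunit Grin2a had a difference of -2.27 ± 0.76. It varied widely in hippocampus, with 50.4, 9.09 and 11.2 TPM in SMRT-KO, against 101.3, 36.8, 14.2 and 27.2 TPM in control. In amygdala Grin2a had 48.2 to 59 TPM in SMRT-KO, against 11.3 to 32.2 TPM in control. Such a separation above control was seen for 5.88% of all genes in amygdala. Synaptic vesicle genes had a median of 0.02 and the corepressor complex of -0.01.

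Cholesterol synthesis genes had positive differences for all 24 members tested, with a median of 0.16, against 0.02 for all genes. Their median effect was 0.26 in hippocampus, with 24 of 24 above 0, and 0.08 in amygdala, with 18 of 24 above 0. Of all 14210 genes, 6277 were above 0 in hippocampus and 5987 in amygdala. None of the 24 passed in either tissue. The differences of 3 (Dhcr7, Sqle and Acat2) were positive at an unadjusted p under 0.05, against 4.02% of all genes. Sqle, squalene epoxidase, had 114.9, 124.4 and 108.7 TPM in SMRT-KO hippocampus, against 94.5, 85.6, 97.0 and 110.0 TPM in control hippocampus. In amygdala Sqle had 98.9, 100.4 and 105.4 TPM in SMRT-KO, against 99.8, 100.8, 99.1 and 112.7 TPM in control. The median was 0.04 without SMRT-KO hippocampus 2 and -0.05 without SMRT-KO hippocampus 1 and 2. Ribosomal protein genes had positive differences for 70 of 78 members with a small median of 0.06, which was -0.001 under quantile normalization.

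**Figure D4:**
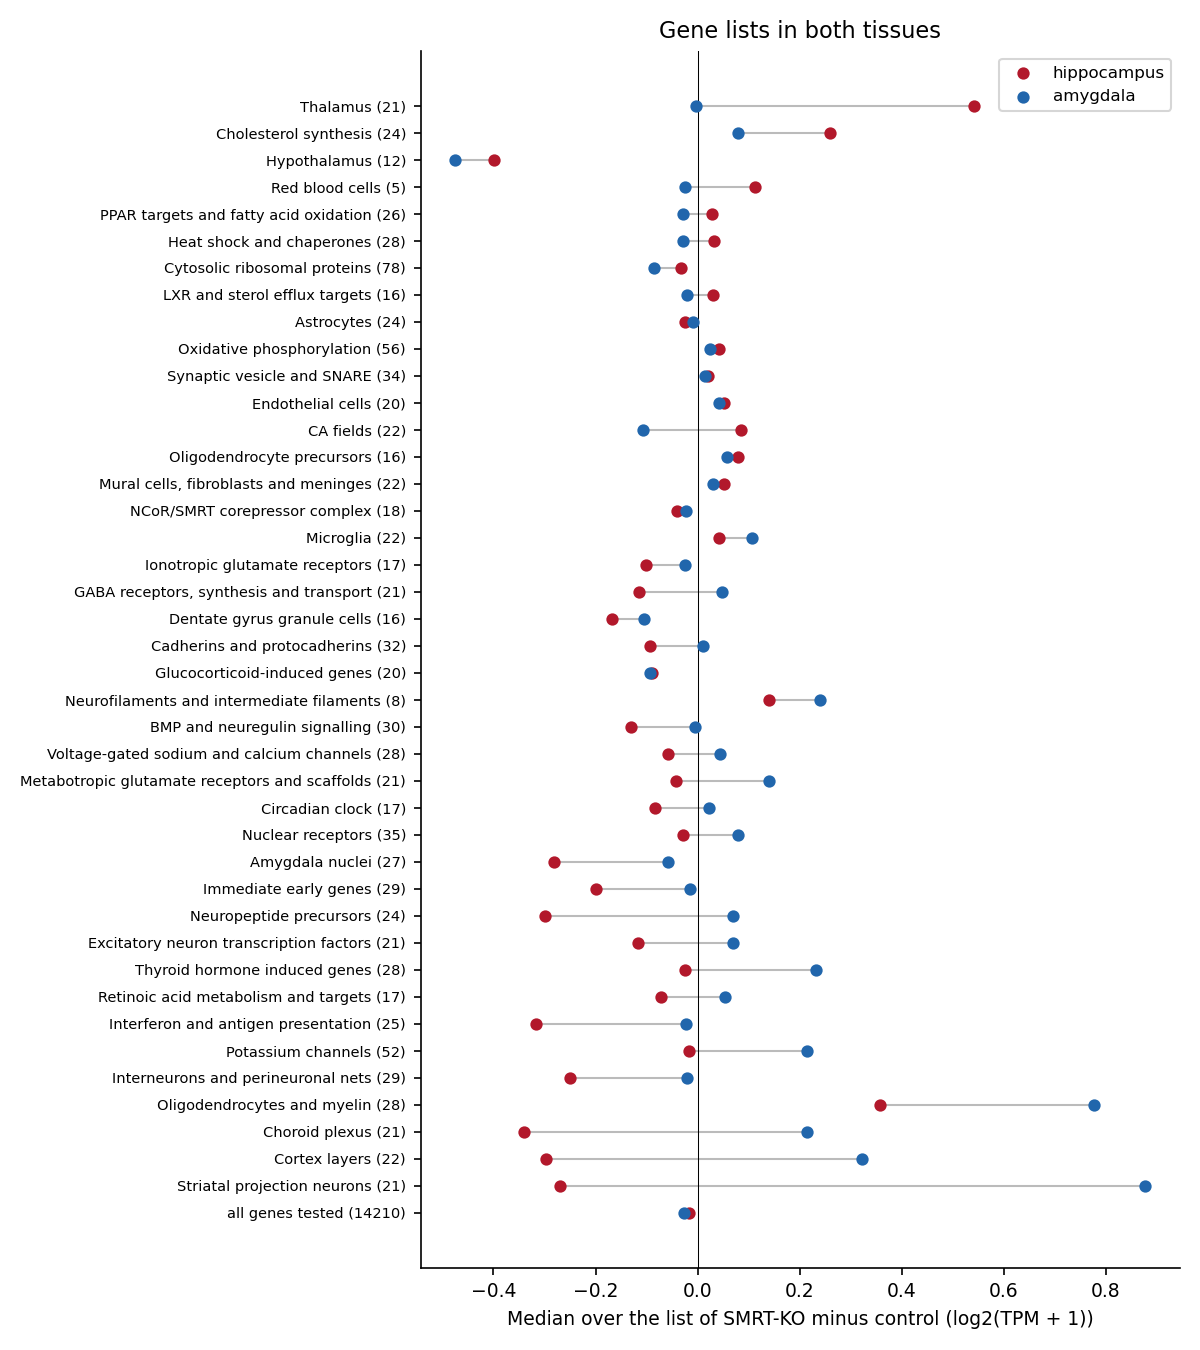
Median SMRT-KO effect (SMRT-KO minus control, log2(TPM + 1)) of each of 41 gene lists in hippocampus (red) and amygdala (blue), with the number of genes tested in parentheses and all genes in the bottom row. Lists are ordered by the median difference, and the widest gaps belong to striatal, cortex layer, thalamus and choroid plexus genes, which mark regions or cells next to the dissected tissue.

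The longest gaps between the tissues belonged to markers of neighbouring regions. Genes of striatal projection neurons had negative differences for 21 of 21 members, with a median of -1.06, a median effect of -0.27 in hippocampus and 0.88 in amygdala. Rgs9, a striatal regulator of G-protein signalling, had 12.4, 10.9 and 10.5 TPM in SMRT-KO hippocampus, against 17.6, 31.5, 16.8 and 12.96 TPM in control hippocampus. In amygdala Rgs9 had 76.5, 72.3 and 118.3 TPM in SMRT-KO, against 34.3, 17.9, 86.8 and 40.7 TPM in control, where control amygdala 3 lay above 2 of the SMRT-KO libraries. The score of the list, the median log2 deviation of its genes from their mean over the tissue's 10 libraries, was 0.39, 0.40 and 0.87 in SMRT-KO amygdala, against -0.35, -0.79, 0.51 and -0.22 in control amygdala. It was -0.13, 0.15 and -0.32 in SMRT-KO hippocampus, against -0.10, 0.76, -0.26 and 0.02 in control hippocampus. The summed TPM of the list ranged over 2008 to 3057 in SMRT-KO amygdala, against 1009 to 2276 in control amygdala.

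Cortex layer genes had negative differences for 22 of 22 members, with a median of -0.51. Their score was 0.14, 0.37 and 0.29 in SMRT-KO amygdala, against -0.10, -0.25, -0.26 and 0.10 in control amygdala, and -0.09, -0.26 and -0.23 in SMRT-KO hippocampus, against 0.10, 0.24, 0.03 and 0.03 in control hippocampus. The groups did not overlap in either tissue. Lamp5, a membrane protein of the endosomal and lysosomal family found in cortical neurons, rose in amygdala to 131.97, 274.1 and 173.6 TPM in SMRT-KO, against 107.96, 104.3, 99.0 and 131.3 TPM in control (adjusted p = 0.0377, limma). Tle4 and Syt6 of the same list rose by 0.46 and 0.98. With the cortex layer score of each library as a covariate, an alternative added after the scores were seen, the amygdala test called 0 genes and the smallest adjusted p of the tissue difference was 1, while the difference of Kctd16 was -1.29. With the striatal score the amygdala test also called 0 genes. The score and the genotype run together in these libraries, and the part that either has in the amygdala effects was not tested.

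Thalamus genes had positive differences for 16 of 21 members, with a median of 0.51, and 1 library set it. The score was -0.16, 2.08 and -0.53 in SMRT-KO hippocampus, against -0.21, -0.13, -0.20 and -0.04 in control hippocampus, and the median difference was -0.18 without SMRT-KO hippocampus 2. The same library had a choroid plexus score of 1.69, with 7402 TPM over the list, while the other SMRT-KO hippocampus libraries had 371.2 and 288.7 TPM and control hippocampus ranged over 244.2 to 4046 TPM. Ttr, the main transcript of choroid plexus epithelium, had 36.3, 5583 and 64.2 TPM in SMRT-KO hippocampus, against 3173, 3250, 20.2 and 571.9 TPM in control hippocampus. In SMRT-KO hippocampus 3 the dentate granule cell score was -0.57, whereas it was 0.08 and 0.12 in the other SMRT-KO hippocampus libraries and between -0.18 and 0.15 in control hippocampus. The part of these regional differences in the hippocampus effects was not tested. Without SMRT-KO hippocampus 2 and control hippocampus 2, which were chosen for their high thalamus and striatal scores after the scores were seen, the tissue difference called 0 genes.

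Oligodendrocyte and myelin genes had a positive median effect in both tissues, 0.36 in hippocampus and 0.78 in amygdala, with 27 of 28 differences negative and a median difference of -0.40. None passed in either tissue. Mog, a myelin glycoprotein, had 339.8, 479.9 and 166.2 TPM in SMRT-KO hippocampus, against 191.4, 196.4, 211.9 and 330.5 TPM in control hippocampus. In amygdala Mog had 127.8, 220.2 and 167.4 TPM in SMRT-KO, against 171.3, 35.1, 110.8 and 68.8 TPM in control. The groups overlapped in both tissues, and the median difference of the list was 0.02 without SMRT-KO hippocampus 3.

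**Figure D5:**
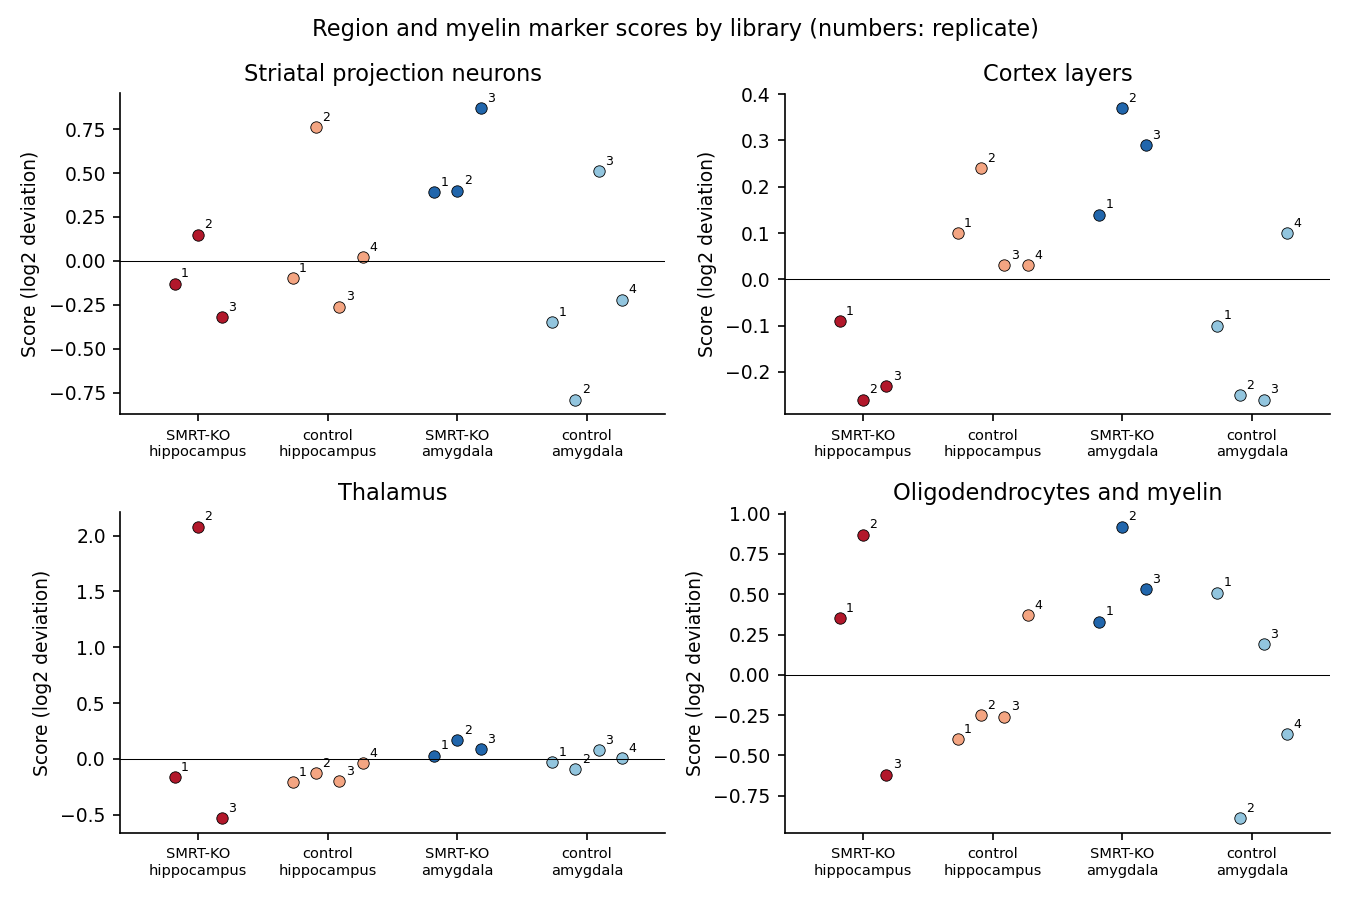
Scores of 4 marker lists by library (numbers give the replicate), in log2 deviation from the mean of the tissue's libraries. SMRT-KO amygdala libraries lie above control amygdala for cortex layers and SMRT-KO hippocampus libraries below control hippocampus, while for thalamus SMRT-KO hippocampus 2 stands alone at 2.08.

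Interneuron and perineuronal net genes had a median difference of -0.30 with 22 of 29 negative; Pvalb, the calcium-binding protein of fast-spiking interneurons, rose in amygdala to 36.1, 100.8 and 60.8 TPM in SMRT-KO, against 26.1, 14.6, 22.5 and 29.9 TPM in control (adjusted p = 0.0192, limma). In hippocampus Pvalb had 65.2, 67.7 and 85.8 TPM in SMRT-KO, against 56.9, 44.0, 55.4 and 57.3 TPM in control, so that SMRT-KO was above control in both tissues, and its difference of -0.95 ± 0.37 did not pass (adjusted p = 0.465). Interferon and antigen presentation genes had a median difference of -0.27 with 21 of 25 negative, and Isg15 had 1.51, 2.46 and 1.77 TPM in SMRT-KO hippocampus, against 7.73, 5.04, 4.82 and 2.81 TPM in control hippocampus. Neuropeptide precursors had a median of -0.23, with Tac1 (substance P) at 6.14, 6.0 and 11.3 TPM in SMRT-KO hippocampus, against 14.5, 54.1, 16.7 and 10.01 TPM in control hippocampus. Medians of astrocyte, microglia, endothelial and mural cell genes lay between -0.02 and 0.03.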

How the data were processed

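Stranded TruSeq mRNA libraries were made from total RNA of each brain region at postnatal day 21, per the labels' protocols. The authors deposited TPM values per gene, 1 table per tissue. The submitters' processing notes name bcl2fastq, fastp 0.21.0, STAR 2.5.3a, RSEM 1.3.3 and the mm10 build. No read counts were used, so the depth per library is unknown and no counting interval is given. TPM is relative, and a very abundant RNA such as Rn45s lowers all others.

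All 20 libraries were fitted jointly in 6 groups with limma 3.58.1 in R 4.3.3 on log2(TPM + 1), with an intensity trend and Benjamini-Hochberg adjustment over 14210 genes at 0.05. On this scale the changes of low genes are understated. All groups share 1 estimate of the spread. Snap25 and Ncor1 were also given exact permutation tests. The procedure was tested on simulated data with known changes. The simulated noise was independent between genes and of equal spread in all groups. It therefore says nothing on a group of wider spread, such as SMRT-KO hippocampus.

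Named were Snap25, Ncor1, Rn45s, up to 12 genes per direction of the difference by smallest p when none passed, up to 8 that passed in a tissue or in the mean, up to 6 per sign pattern, and up to 4 per list. Hcrtr1 lies outside that rule, and some results are not reported here. The genes compared and the 41 lists (987 symbols, 939 tested) were chosen with earlier results of these data known. Positions are from GENCODE (GRCm38) and promoter sequences from RefSeq (GRCm38.p6). Alternatives were another pseudocount, other filters, quantile normalization, removal of Rn45s, fewer groups in the fit, array weights, no trend, a replicate block, each library left out, and, added after seeing the data, marker scores as covariates and pairs of libraries left out.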

Additional observations from a re-analysis of the deposited data

Results flagged for a closer look

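Of 284 groups of 4 control libraries examined, 14 held a library far from the other 3 by Dixon's criterion, and chance gives about 1 in 20. In control hippocampus, Gabrg3 was 4.06 TPM in library 3 (others 9.9 to 10.6), Kcnh7 was 9.08 TPM in library 1 (others 2.23 to 3.13), Mog was 330 TPM in library 4 (others 191 to 212) and Rasd1 was 93.2 TPM in library 4 (others 68.0 to 69.0). Control hippocampus 2 had 44.0 TPM of Pvalb (others 55.4 to 57.3) and 54.1 TPM of Tac1 (others 10.01 to 16.7). That library also had an amygdala nuclei score of 0.71 (others -0.06 to 0.05) and an interneuron score of 0.26 (others 0.08 to 0.10). The interferon score was 0.58 in control hippocampus 1 (others -0.03 to 0.05).

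In control amygdala, library 1 had 71.3 TPM of Ncor1 (others 117 to 127) and 1050 TPM of Ttr (others 14.7 to 64.4). Library 3 had 11.5 TPM of Mov10 (others 13.7 to 13.99) and 168 TPM of Nefm (others 115 to 123). Library 4 had 113 TPM of Sqle (others 99.1 to 101).

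The tissue difference of SMRT-KO differed from that of NCoR1-KO for 3 genes by the test of that contrast (limma, adjusted p = 0.033 each). The values were -1.38 for Kctd16, -1.37 for Grm3 and 1.24 for Hcrtr1.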

How the results depend on the processing

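The count of genes with a tissue difference was 0 and became 1 with no filter, 43 with array weights and 543 without SMRT-KO hippocampus 1 and 2, and it was 0 to 17 with single libraries left out. The hippocampus count of 1 became 0 with no filter, with only the SMRT-KO and control libraries, with each tissue fitted alone, without SMRT-KO hippocampus 2 and control hippocampus 2, and with the cortex layer score as a covariate. It was 994 without SMRT-KO hippocampus 1 and 2, and 0 to 251 with single libraries left out. The amygdala count of 309 became 11 with only the SMRT-KO and control libraries, 16 with the tissue fitted alone, 2057 with array weights, 525 without SMRT-KO hippocampus 2 and control hippocampus 2, 623 without SMRT-KO hippocampus 1 and 2, 0 with the striatal or the cortex layer score, 130 with the oligodendrocyte score, and 6 to 716 with single libraries left out. The count of 221 in the mean over tissues became 128 with no filter, 1 with only the SMRT-KO and control libraries, 1673 with array weights, 21 without SMRT-KO hippocampus 2 and control hippocampus 2, 1125 without SMRT-KO hippocampus 1 and 2, 18, 32 and 65 with the striatal, cortex layer and oligodendrocyte scores, and 3 to 562 with single libraries left out. The count of 3 against NCoR1-KO became 7 with no filter, 1045 with array weights, 1676 without SMRT-KO hippocampus 1 and 2, and 0 with quantile normalization, without SMRT-KO hippocampus 2 and control hippocampus 2, and with each of the 3 scores. It was 0 to 489 with single libraries left out. The cause of these changes was not tested.

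Replicate numbers were shared between groups, but the labels do not say that a number marks a shared animal or litter. Over 10 pairs of same-numbered hippocampus and amygdala libraries the correlation of their deviations was over 0.1 in 7 (range 0 to 0.48) and highest for the own number in 5, and the block correlation was 0.185. As not every pair was over 0.1, the block was not used for the reported values, and whether the numbers pair the libraries is not settled. With the replicate block the tissue difference called 0 genes, the mean over tissues 22 and the comparison with NCoR1-KO 10, while the replicate block as within-pair differences gave 0 for NCoR1-KO.

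Of the differences of named genes, those that changed sign were Sema7a (0.0255), Pparg (0.368), Egr1 (0.0446), Kcnh1 (0.0344), Pvalb (0.104), Isg15 (0.452), Mef2c (0.0847), Lhx9 (-0.181) and Cplx3 (0.41) with the cortex layer score, and Mobp (0.0844), Mal (0.087) and Mog (0.0437) with the striatal score. With single libraries left out the difference of Snap25 ranged over -0.099 (without SMRT-KO hippocampus 3) to 0.221, and that of Ncor1 over -0.305 to 0.045 (without control amygdala 1). Of 3542 values for 102 results on genes under alternatives, 3380 kept direction and side of the threshold. Of the rest, 93 no longer passed, 57 newly passed and 12 changed sign. A result that did not pass and stayed so counts as kept, so the total says little about genes that passed. With 3 and 4 libraries a group and TPM only, the unadjusted 95% interval of a typical difference extended 0.301 log2 units to either side.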
